A study of Mus musculus with 36 samples.

Results

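The step between 1 h and 4 h of stimulation was examined in mouse T cells whose only Malt1 allele carries a mutation of the paracaspase, the protease activity of MALT1. The members are the 8 arrays titled PM at 4 h (4 arrays) and PM at 1 h (4 arrays), of 36 arrays in the series, chosen by the time and genotype in their titles. PM cells are Malt1PM/-, with 1 paracaspase-mutant allele and 1 null allele. Their step was set against the same step in Malt1+/- cells (het, 1 working allele and 1 null allele) and in Malt1-/- cells (KO, no allele), again with 4 arrays a group, and each genotype also had 4 unstimulated arrays (0 h). Every array is labelled as T cells from B6.C-Tg(CMV-cre)1Cgn/J mice, whose transgene drives Cre recombinase widely from a viral promoter, and as carrying experiment number E3, E4, E5 or E6, called replicates 1 to 4 here. The labels give no age and do not say which of the stimuli in their protocol (PMA with ionomycin, or antibodies to CD3 and CD28) these arrays had, nor whether total or CD4+ T cells were used. Per the design text there were 3 biological replicates while the labels number 4, and whether they came from separate mice is not stated, so the p-values measure the spread between these samples, which may be technical.

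MALT1 works with BCL10 in a complex that links the T cell receptor to NF-kB, where it recruits TRAF6 as a scaffold. As a protease it cuts negative regulators of the same pathway, among them TNFAIP3, CYLD and RelB, and the RNA-degrading proteins Regnase-1 (Zc3h12a) and Roquin (Rc3h1). The transcription that follows receptor stimulation runs in waves. Transcription factor genes such as Fos and Egr1 come on first and go off quickly, and genes for cytokines, receptors, metabolism and ribosome assembly follow.

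Signals are given as normalized log2 intensity, and the step is the mean at 4 h minus the mean at 1 h (log2), so that a step of 1 is a 2-fold rise. The PM arrays detected 8104 to 9717 probes at 4 h and 8386 to 9402 at 1 h (7713 to 10291 over all 36 arrays), and the number of arrays limits the precision. Arrays correlated at 0.954 to 0.981 within PM 4 h and at 0.934 to 0.973 within PM 1 h, against 0.858 to 0.918 between the times. Malt1 itself read 5.80, 6.10, 6.55 and 5.93 in PM cells at 4 h, against 5.29, 5.30, 5.68 and 6.19 at 1 h, and 5.21 ± 0.37 at 0 h (SD, n = 4). At 4 h it averaged 6.10 ± 0.33 in PM cells, 5.82 ± 0.32 in KO cells and 7.29 ± 0.26 in het cells. In KO cells it was detected on 0 of 4 arrays at 1 h but on 4 of 4 at 4 h, and the place of its probe relative to the deletion was not analysed here, so that it is a limited check of the labels.

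Of 7585 tested genes, 3625 (47.8%) differed between PM 4 h and PM 1 h at an adjusted p under 0.05 in the limma fit. At 4 h 1792 genes were higher (23.6%) and 1833 were lower (24.2%), of which 703 rose (9.27%) and 747 fell (9.85%) by a factor of 2 or more. The 4 and 4 arrays did not overlap for 2963 genes (39.1%), and 3469 of the genes that passed moved the same way in all 4 replicate numbers. When quantile normalization was replaced by setting the median of each array equal (median scaling here), 1865 genes passed, 1191 of them up and 674 down. That scaling put the median step of all tested genes at 0.09, against -0.02 here, and steps are best read relative to these medians.

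The largest rise was that of Bcat1, the cytosolic transaminase of branched-chain amino acids. It read 9.23, 8.67, 9.51 and 10.09 at 4 h, against 4.46, 4.35, 4.42 and 4.38 at 1 h. It was detected on no array at 1 h, and its signal was at least 23-fold higher at 4 h (adjusted p 1.95e-16). Xcl1, the chemokine lymphotactin that draws cross-presenting dendritic cells, read 10.53, 9.63, 10.88 and 11.46 at 4 h, against 7.31, 4.56, 5.48 and 7.53 at 1 h. The arrays of the times did not overlap, although those at 1 h were far apart among themselves, and the step was 4.41 (SE 0.52, adjusted p 1.78e-08). Tnfrsf9 (CD137), a costimulatory receptor of the TNF receptor family, read 8.30, 8.72, 8.63 and 8.94 at 4 h, against 4.67, 4.48, 4.37 and 5.16 at 1 h. The step was 3.97 (SE 0.17, adjusted p 6.63e-18), with detection on 1 of 4 arrays at 1 h, so that its size depends on values near background. Il2ra, the high-affinity chain of the IL-2 receptor, read 8.45, 8.10, 8.80 and 8.44 at 4 h, against 4.96, 4.41, 4.62 and 4.79 at 1 h, a step of 3.76 (SE 0.16), again with detection on 1 of 4 arrays at 1 h. Both receptors lay near their 0 h level at 1 h (4.62 and 4.57 at 0 h).

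The other large rises were Sema7a, a membrane-anchored semaphorin (17.1-fold), Kif15, a mitotic kinesin (at least 8.22-fold), and Lad1, a basement membrane protein (at least 7.89-fold). Slc19a1, the reduced folate carrier, rose 10.1-fold, Il4i1, a secreted amino acid oxidase, 9.92-fold, and Hk2, a hexokinase that starts glycolysis, 9.86-fold. Rgs16, a brake on G protein signalling, rose 9.79-fold, the zinc finger gene Zfp52, detected on 1 of 4 arrays at 1 h, 8.92-fold, and Srm, the spermidine synthase, 8.56-fold. Mfsd2a, a lysolipid transporter, and Prnp, the prion protein gene, closed the list at 8.32-fold and 8.31-fold. All 15 had fitted steps of 3.06 to 4.97, and 15 also rose in het cells and 14 in KO cells by the same test of those cells' own step. Prnp did not pass there in KO cells (step 0.72).

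The largest falls were genes of resting T cells and genes that had been high only at 1 h. Igfbp4, a binding protein of insulin-like growth factors that marks naive T cells, read 6.57, 6.67, 6.26 and 6.45 at 4 h, against 10.79, 11.45, 10.88 and 10.50 at 1 h, and it had averaged 11.38 at 0 h. It was 21.4-fold lower at 4 h (step -4.42, SE 0.22, adjusted p 1.6e-16). Itgb7, an integrin chain for homing to the gut, read 7.76, 7.34, 6.95 and 8.23 at 4 h, against 11.10, 10.76, 11.46 and 11.47 at 1 h. Its step was -3.63 (SE 0.25). Trim36, a ubiquitin ligase gene, read 5.98, 5.64, 5.38 and 4.97 at 4 h, against 9.27, 8.54, 9.33 and 9.19 at 1 h. Trim36 had averaged 5.65 at 0 h, so that its level at 1 h was a peak, while Igfbp4 and Itgb7 were high before stimulation. Nsg2 (step -3.35), Emp3 (-3.35), Ampd1, the muscle-type AMP deaminase (-3.16), Adgre5, which codes for the adhesion receptor CD97 (-3.07), and Sit1, an adaptor that dampens receptor signalling (-3.03), were also high at both 0 h and 1 h. Dtx1, an E3 ligase of the Notch pathway and of T cell anergy, was detected on no array at 4 h and was at least 5.71-fold lower there. The 15 largest falls had steps of -2.84 to -4.42, and all 15 fell in the own steps of het and KO cells as well.

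**Figure D1:**
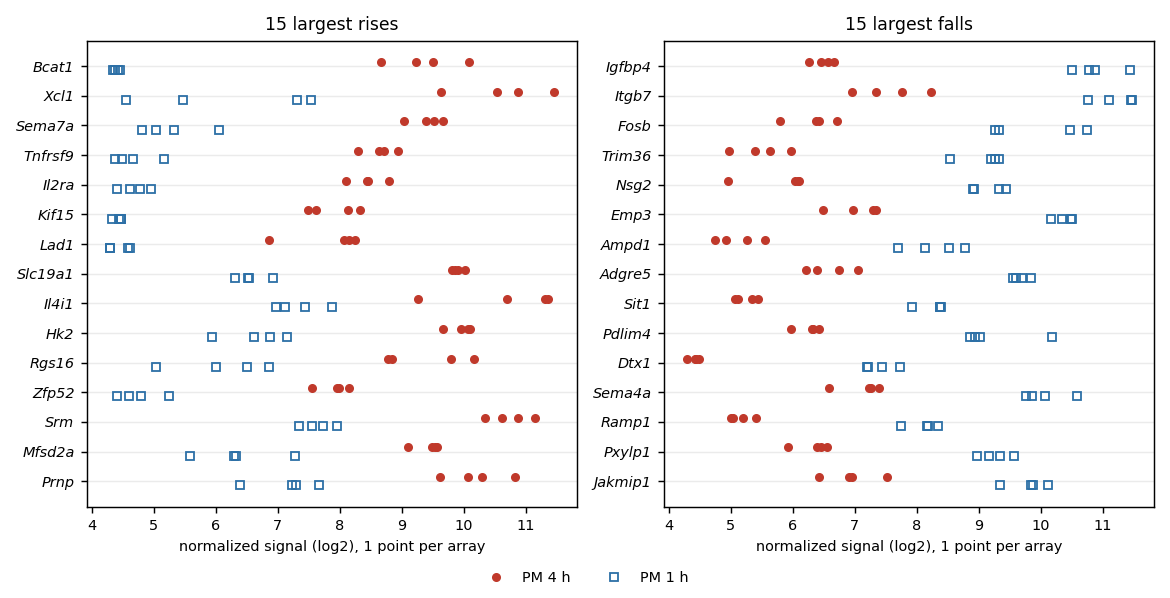
Normalized log2 signal (horizontal axis) of the 15 largest rises (left) and 15 largest falls (right) in PM cells, with 1 filled circle for each PM 4 h array and 1 open square for each PM 1 h array. No gene shown has overlapping times, and the Xcl1 squares run from 4.56 to 7.53.

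The first wave of transcription factors had largely gone down by 4 h. Of 27 measured immediate early genes 16 fell and 2 rose, with a median step of -1.06, beside 24.2% falling and 23.6% rising among all tested genes. Under median scaling 10 fell. Fosb, a partner of JUN in AP-1, read 6.42, 6.72, 5.80 and 6.37 at 4 h, against 9.26, 9.33, 10.74 and 10.47 at 1 h, with 5.28 ± 1.67 at 0 h (SD, n = 4). Its step was -3.62 (SE 0.66, adjusted p 3.01e-05). Fos read 9.31, 9.32, 8.57 and 8.21 at 4 h, against 11.21, 11.38, 11.15 and 11.43 at 1 h (step -2.44, SE 0.69). Both came back towards their unstimulated means, which varied widely between arrays, with an SD of 1.80 for Fos. Klf4, a factor that restrains T cell proliferation, read 5.03, 4.68, 4.26 and 4.30 at 4 h, against 6.87, 6.06, 8.19 and 6.59 at 1 h (step -2.36, SE 0.33). Junb fell by 2.28 and Egr1 by 1.56 (SE 0.51 and 0.18). Egr1, a zinc finger factor that responds to MAP kinases, averaged 11.55 ± 0.15 at 4 h, against 13.11 ± 0.28 at 1 h (SD, n = 4 each), and was still above its unstimulated mean of 10.19.

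Zfp36, whose protein tristetraprolin marks cytokine mRNAs for decay, read 10.99, 10.76, 10.43 and 10.83 at 4 h, against 12.28, 12.52, 12.55 and 13.01 at 1 h. It was 3.58-fold lower at 4 h (step -1.84, SE 0.23, adjusted p 5.16e-08). Its 250 bases before the start of transcription (RefSeq, GRCm38.p6, chr7:28379229-28379478, minus strand) hold a CArG box, the binding motif of serum response factor, shown in capitals 48 bases before the start. This promoter was picked because it holds the box, which most promoters of this group do not.
Zfp36 promoter: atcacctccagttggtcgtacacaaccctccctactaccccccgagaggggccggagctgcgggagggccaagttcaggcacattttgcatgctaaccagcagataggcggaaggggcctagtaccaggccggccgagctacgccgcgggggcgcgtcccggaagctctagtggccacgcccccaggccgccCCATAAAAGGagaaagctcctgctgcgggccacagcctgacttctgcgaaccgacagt
A CArG box on either strand stood in 3 of the 20 immediate early genes with a promoter in the table (15%), and in 1.31% of the 6274 tested genes with one. The match is a description of these letters.

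The 2 immediate early genes that rose were Myc and Ier3, an NF-kB target that protects from cell death. Myc, the factor that drives growth genes, read 8.82, 8.64, 8.71 and 7.16 at 4 h, against 7.87, 5.70, 6.68 and 4.29 at 1 h. The times overlapped, but each replicate number was higher at 4 h, and the step was 2.2 (SE 0.56, adjusted p 0.00147). Ier3 rose by 1.07 (SE 0.23). Crem, Atf3, Jun and Nr4a3 did not pass, with steps of -0.64, 0.14, -0.50 and -0.25. Atf3 averaged 8.29 ± 0.59 at 4 h, against 8.16 ± 1.59 at 1 h, both above its mean of 4.23 before stimulation.

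Of 13 measured phosphatases and other brakes of MAP kinases 4 fell and 2 rose, beside 24.2% falling and 23.6% rising among all tested genes (median step -0.20). Under median scaling 2 fell and 2 rose (median 0.01). Dusp10, a phosphatase of JNK and p38, read 7.37, 6.80, 6.24 and 6.45 at 4 h, against 9.90, 9.42, 9.64 and 8.94 at 1 h, and it had averaged 6.78 at 0 h (step -2.76, SE 0.22). Dusp1 fell by 2.00 (SE 0.54, adjusted p 0.00264), a call lost under median scaling (adjusted p 0.0605). Rgs16 was among the largest rises, and Spred1, an inhibitor of RAS to RAF signalling, rose by 1.59 (SE 0.19).

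Genes that had answered early in cells with a working allele gave a wider view of this decline. In het cells 397 genes were at least 2-fold higher at 1 h than at 0 h (5.23% of tested genes) and 141 at least 2-fold lower (1.86%). Of the 397, 211 fell in the PM step (53.1%, beside 24.2% of all tested genes), 46 rose (11.6%, beside 23.6%) and 140 did not pass, with a median step of -0.57. In PM cells these genes lay 0.73 above 0 h at 4 h, against 1.29 above it at 1 h (medians, log2). Of the 141 early falls, 47 rose (33.3%), 41 fell (29.1%) and 53 did not pass in the PM step, with a median of 0.01. Under median scaling 97 of the early rises fell and 42 rose.

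**Figure D2:**
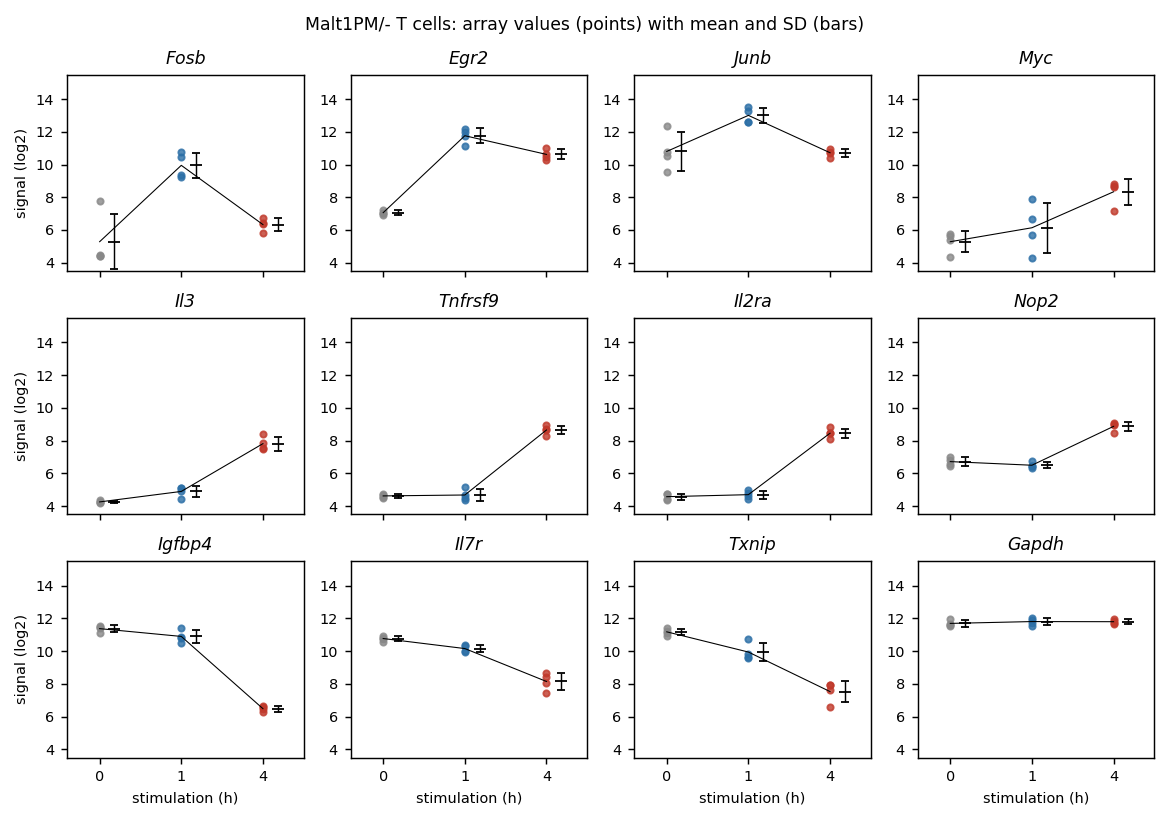
Normalized log2 signal (vertical axis) of 12 genes in PM cells at 0, 1 and 4 h of stimulation, with 1 point per array, a line through the means and bars for mean and SD (n = 4). Fosb and Junb were highest at 1 h, Tnfrsf9 and Il2ra stayed near 4.7 at 1 h and passed 8 at 4 h, and Gapdh had a step of -0.01.

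Of 30 measured NF-kB subunits, inhibitors and targets 10 rose and 5 fell, beside 23.6% rising and 24.2% falling among all tested genes, with a median step of 0.21, and 9 rose and 2 fell under median scaling. Irf4, the factor that scales effector differentiation with receptor signal, read 12.05, 12.04, 12.26 and 11.80 at 4 h, against 10.28, 10.03, 10.56 and 10.07 at 1 h, with 6.43 at 0 h. It had gone up early and rose further (step 1.80, SE 0.24, adjusted p 1.42e-07). Nfkbid, the atypical inhibitor IkBNS, read 11.43, 11.73, 11.42 and 11.09 at 4 h, against 12.39, 12.73, 12.61 and 12.60 at 1 h (step -1.17, SE 0.17). Nfkbia, the classical inhibitor that NF-kB itself induces, averaged 10.62 ± 0.47 at 4 h and 10.70 ± 0.29 at 1 h and did not pass (step -0.08, SE 0.25). Bcl2l1, which codes for the survival protein BCL-XL, read 7.35, 6.42, 6.69 and 4.28 at 4 h, against 5.24, 4.72, 4.65 and 4.16 at 1 h, with replicate 4 as low at 4 h as the arrays at 1 h, and detection on 3 arrays at 4 h and on 1 at 1 h. Its step was 1.5 (SE 0.48, adjusted p 0.0112), and the call ended in the fit of the 8 PM arrays alone (adjusted p 0.0539).

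Among 18 measured genes of MALT1, its partners and the substrates of its protease, 3 rose (16.7%) and 7 fell (38.9%). Among all tested genes 23.6% rose and 24.2% fell. The median step of the list was -0.26. The 7 falls all lost their call under median scaling. Tnfaip3, a deubiquitinase that shuts NF-kB down, read 10.83, 10.22, 10.50 and 9.89 at 4 h, against 11.64, 11.44, 11.61 and 11.70 at 1 h (step -1.24, SE 0.45, adjusted p 0.0242). It was still well above its mean of 8.07 at 0 h. Bcl10 read 8.86, 9.28, 9.09 and 9.13 at 4 h, against 9.82, 10.06, 10.14 and 10.03 at 1 h (step -0.92, SE 0.18). Zc3h12a, which codes for Regnase-1, fell by 0.81 (SE 0.21), and Cyld, another deubiquitinase, by 0.78 (SE 0.16). In the other direction Zc3h12d, a relative of Regnase-1, read 9.26, 9.54, 9.45 and 9.55 at 4 h, against 7.17, 8.01, 7.67 and 7.89 at 1 h (step 1.76, SE 0.17). Relb, a subunit of alternative NF-kB, rose by 0.74 (SE 0.30, adjusted p 0.0428) and Traf6 by 0.55 (SE 0.14). Of 12 measured mRNAs that Regnase-1 and Roquin are known to degrade 4 rose (33.3%) and 6 fell (50%), with a median step of -0.33. The rises were Myc, Irf4, Tnfrsf4 and Ier3, and the falls Egr1, Ctla4, Nfkbid, Nfkbiz, Zc3h12a and Icos. Under median scaling 4 rose and 2 fell.

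Most measured cytokine genes were higher at 4 h. Of 15 measured, from 24 on the array, 9 rose and 1 fell, with a median step of 0.80. Among all tested genes 23.6% rose and 24.2% fell. Il3, a growth factor for mast cells and blood progenitors, read 7.84, 7.47, 7.54 and 8.39 at 4 h, against 5.10, 4.41, 4.94 and 5.12 at 1 h, and no array detected it at 0 h. It was 7.57-fold higher at 4 h (step 2.92, SE 0.26, adjusted p 6.16e-11). Csf2, which codes for GM-CSF, read 6.07, 5.69, 6.92 and 6.76 at 4 h, against 4.52, 4.24, 4.33 and 5.18 at 1 h, where 1 of 4 arrays detected it (step 1.79, SE 0.20). Il4, the type 2 helper cytokine, read 8.38, 8.28, 8.81 and 8.79 at 4 h, against 7.48, 5.87, 6.65 and 7.18 at 1 h (step 1.77, SE 0.33). Mif rose by 1.58 (SE 0.11), Ifng, the type 1 helper cytokine, by 1.52 (SE 0.33) and Lta by 1.33 (SE 0.30). Tnf averaged 9.65 ± 0.40 at 4 h, against 9.48 ± 0.20 at 1 h, both above its mean of 6.56 before stimulation, and its step did not pass (0.17, SE 0.22). Il16 fell by 0.91 (SE 0.27). Under median scaling 8 cytokine genes rose and 0 fell.

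The 250 bases before the start of Il3 (chr11:54267280-54267529, minus strand, RefSeq, GRCm38.p6) are shown as those of the cytokine with the largest step, with overlapping matches to the kB motif (GGG and CC with any 5 bases between) in capitals, 48 and 47 bases before the start.
Il3 promoter: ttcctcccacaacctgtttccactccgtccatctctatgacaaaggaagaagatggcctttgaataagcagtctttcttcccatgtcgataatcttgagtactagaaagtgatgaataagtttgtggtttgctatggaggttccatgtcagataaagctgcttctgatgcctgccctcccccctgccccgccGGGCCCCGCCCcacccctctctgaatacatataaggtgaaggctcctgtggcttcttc
The motif stood on either strand in 8 of 13 cytokine promoters (61.5%) and in 65.9% of those of tested genes.

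Of 9 measured chemokines, from 16 on the array, 6 rose and 1 fell, beside 23.6% rising and 24.2% falling among all tested genes. Their median step was 1.76. At 1 or both of the 2 times 3 of the 9 were detected on no PM array, and the same held for 928 of the 7585 tested genes. Beside Xcl1 the rises included Ccl1 and Cxcl9, each detected on 4 of 4 arrays at 4 h and on none at 1 h. Ccl1, a ligand of CCR8, read 7.14, 6.34, 7.58 and 8.21 at 4 h, against 4.36, 4.16, 4.52 and 4.59 at 1 h, which makes it at least 5.52-fold higher. Cxcl9, which interferon gamma induces, was at least 5.77-fold higher, with replicate 2 lowest at 4 h (5.77, the others 7.29 to 8.29). Ccl3 rose by 1.89 (SE 0.49) and Cxcl10 by 1.76 (SE 0.35), while Ccl5 fell by 0.99 (SE 0.38), a call lost under median scaling, where 5 chemokines rose. Ccr8, the receptor of CCL1, rose by 2.17 (SE 0.36).

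Of 23 costimulatory and inhibitory receptors 13 rose and 5 fell (median step 0.63), beside 23.6% rising and 24.2% falling among all tested genes. Under median scaling 12 rose and 1 fell. After Tnfrsf9 the largest were Slamf1, a self-binding receptor of lymphocytes (2.06, SE 0.38), Cd44, a hyaluronan receptor of activated T cells (1.83, SE 0.27), and Cd160 (1.64). Ctla4, the inhibitory receptor for B7 ligands, went the other way, with 6.60, 7.28, 6.45 and 6.77 at 4 h, against 7.78, 8.18, 8.39 and 8.45 at 1 h (step -1.42, SE 0.23). Cytokine receptors fell in 7 of 19 cases (36.8%) and rose in 4 (21.1%, near the share of all tested genes). Their median step was -0.50, with 4 falls under median scaling. Il7r, the survival receptor of naive cells, read 8.07, 8.67, 7.43 and 8.43 at 4 h, against 10.34, 10.35, 10.01 and 9.95 at 1 h (step -2.01, SE 0.23). Ifngr2 fell by 2.22 (SE 0.20), and Il15ra rose by 2.13 (SE 0.16) beside Il2ra. Among SOCS genes, feedback inhibitors of cytokine signalling, Cish rose by 2.03 (SE 0.26) and Socs3 fell by 2.01 (SE 0.26), within a list of 21 JAK, STAT and SOCS genes with 5 rises and 4 falls, shares near the 23.6% and 24.2% of all tested genes, and with 2 and 2 under median scaling.

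Of 20 lineage factors 7 rose (35%) and 3 fell (15%), beside 23.6% rising and 24.2% falling among all tested genes. The median step was 0.44, with 3 rises and no fall under median scaling. Tbx21 (T-bet), the factor of type 1 helper cells, read 7.07, 7.12, 7.59 and 7.62 at 4 h, against 4.65, 4.28, 4.80 and 4.38 at 1 h. It was detected on no array at 1 h and was at least 5.64-fold higher at 4 h. Irf8 rose by 2.04 (SE 0.36). Gata3, the factor of type 2 helper cells, had a step of 0.57 that did not pass.

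Of 35 interferon-stimulated genes 9 rose, a share near the 23.6% of all tested genes, and 4 fell (median step 0.01). With the replicate number as a block 9 rose and 9 fell, and under median scaling 8 rose and 1 fell. The rises were led by guanylate-binding proteins, which interferon gamma induces. Gbp5 read 7.35, 7.06, 6.94 and 6.95 at 4 h, against 4.2, 4.53, 4.50 and 4.15 at 1 h, and was at least 4.66-fold higher. Gbp2 read 13.78, 13.20, 13.37 and 13.61 at 4 h, against 10.95, 10.77, 11.73 and 10.77 at 1 h (step 2.44, SE 0.31), and Gbp3 and Ifi47 rose by 1.58 and 1.43. The falls (11.4%, beside 24.2% of all tested genes) were Mx2 (-1.16), Oas2 (-1.07), Rsad2 (-0.92) and Ifit2 (-0.74), and 22 of the 35 did not pass. Ifit3 had a step of -0.06 and Usp18 of 0.27, and neither passed.

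Genes of naive and quiescent T cells fell in 19 of 29 cases (65.5%, beside 24.2% of all tested genes), with a median step of -1.24. Txnip, an inhibitor of glucose uptake, read 7.95, 7.96, 6.62 and 7.61 at 4 h, against 9.66, 10.76, 9.81 and 9.56 at 1 h, and had averaged 11.19 at 0 h (step -2.42, SE 0.31). Tob2, an antiproliferative factor, fell by 2.41, and Klf2, the factor of naive T cell circulation, by 1.61 (SE 0.25). Slfn2, which keeps mouse T cells quiescent, and its relative Slfn1 were the 2 that rose, by 1.45 (SE 0.56, adjusted p 0.0314) and 0.63 (SE 0.19). Slfn2 at 4 h (7.27, 8.15, 7.98 and 6.20) overlapped with 1 h (6.44, 7.09, 5.99 and 4.28).

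Genes of the T cell receptor and its proximal signalling fell in 12 of 26 cases (46.2%) and rose in 5 (19.2%). Among all tested genes 24.2% fell and 23.6% rose. The median step of the list was -0.34, with 3 falls under median scaling. Cd3e averaged 10.91 ± 0.13 at 4 h and 11.47 ± 0.15 at 1 h (step -0.56, SE 0.10). Zap70, the kinase that the receptor recruits, rose by 0.65 (SE 0.16). NFAT and calcium genes fell in 7 of 14 cases (50%) and rose in 2 (14.3%). Their median step was -0.67, with 3 falls and 3 rises under median scaling. Itpr2, an IP3 receptor of the endoplasmic reticulum, read 7.52, 7.5, 7.09 and 7.25 at 4 h, against 9.23, 9.96, 9.65 and 9.30 at 1 h (step -2.2, SE 0.18). The rises were Nfatc1 (1.08, SE 0.15) and Rcan1, an inhibitor of calcineurin and target of NFAT (1.04, SE 0.23).

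The machinery of growth rose broadly. Of 55 ribosome biogenesis factors 47 rose (85.5%) and 0 fell, beside 23.6% rising and 24.2% falling among all tested genes. Their median step was 1.24, and under median scaling 42 rose and 0 fell. The mean level of the list lay between 8.96 and 9.32 on the arrays at 4 h, against 7.83 to 7.91 at 1 h. Rrp1b, a nucleolar processing factor, read 9.64, 9.61, 9.46 and 9.32 at 4 h, against 7.0, 7.10, 6.98 and 7.33 at 1 h (step 2.40, SE 0.21, adjusted p 6.89e-11). Nop2, a methyltransferase of ribosomal RNA, read 8.45, 8.94, 9.04 and 9.06 at 4 h, against 6.29, 6.46, 6.47 and 6.75 at 1 h (step 2.38, SE 0.21). Of 49 cytosolic ribosomal protein genes 3 rose and 4 fell, with a median step of -0.08 that turned to 0.05 under median scaling, where none passed.

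Nop2 carries the E box CACGTG, the motif that MYC binds with MAX, 54 bases before its start (chr6:125131633-125131882, plus strand, RefSeq, GRCm38.p6), in capitals in the sequence, which is shown as the largest step among the biogenesis genes with this motif.
Nop2 promoter: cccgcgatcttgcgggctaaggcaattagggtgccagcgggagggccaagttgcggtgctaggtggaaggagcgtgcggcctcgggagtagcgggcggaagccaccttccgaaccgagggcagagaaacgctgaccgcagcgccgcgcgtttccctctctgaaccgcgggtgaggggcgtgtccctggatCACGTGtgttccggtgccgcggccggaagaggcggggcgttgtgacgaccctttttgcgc
The motif is its own reverse complement. It stood in 2 of 48 promoters of ribosome biogenesis factors (4.17%), in 6 of 20 of immediate early genes (30%) and in 10.5% of those of tested genes.

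Other lists of biosynthesis and protein turnover also rose, beside 23.6% rising and 24.2% falling among all tested genes. Of 17 genes of serine and one-carbon metabolism 12 rose and 0 fell (median step 1.31). Psat1, an enzyme of serine synthesis, read 9.64, 9.93, 10.14 and 9.68 at 4 h, against 7.55, 7.33, 7.34 and 7.36 at 1 h (step 2.46, SE 0.12, adjusted p 7.11e-17). Cad, which starts pyrimidine synthesis, rose by 2.39 (SE 0.25), and Shmt2, the mitochondrial serine hydroxymethyltransferase, by 2.16. Of 21 aminoacyl-tRNA synthetases and their scaffold proteins 18 rose and 0 fell (median 1.16), led by the scaffold Aimp2 (2.18, SE 0.17). Proteasome subunits rose in 25 of 29 cases with 0 falls (median 0.71). Psmd7, a subunit of the regulatory particle, averaged 9.77 ± 0.15 at 4 h and 8.37 ± 0.11 at 1 h (step 1.40, SE 0.10). Chaperones rose in 17 of 28 cases and fell in 3 (median 0.70, and 14 rises and 1 fall under median scaling), with Hspd1, the mitochondrial HSP60, up by 1.70 (SE 0.18). Translation initiation factors rose in 16 of 28 cases and fell in 1 (median 0.54), with Eif4ebp1, the mTOR target that restrains cap binding, up by 1.68 (SE 0.26). Under median scaling 10 one-carbon genes, 17 synthetases, 18 proteasome subunits and 11 initiation factors rose, and 0 of each list fell.

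Genes of glucose use did not rise as a list. Of 18 measured 2 rose (11.1%) and 6 fell (33.3%), beside 23.6% rising and 24.2% falling among all tested genes. The median was 0.00, and 0.15 with 2 falls under median scaling. Hk2 was a large rise, and Pgam1 rose by 1.25. Pdk1, a kinase that closes pyruvate dehydrogenase, read 6.36, 6.35, 6.51 and 6.83 at 4 h, against 8.48, 9.25, 9.03 and 8.12 at 1 h (step -2.21, SE 0.26), and Slc2a3, a glucose transporter, fell by 1.32 (SE 0.11). Of 16 genes of amino acid transport and polyamine synthesis 7 rose and 2 fell (median 0.27), among them Slc7a5, the large neutral amino acid transporter, with 11.73, 11.71, 11.73 and 11.67 at 4 h, against 10.39, 9.84, 10.05 and 9.96 at 1 h (step 1.65, SE 0.14). Cell cycle genes fell in 9 of 28 cases (32.1%) and rose in 5 (17.9%), with a median of -0.29. There were 11 falls and 8 rises when the replicate number was a block, and 5 falls and 4 rises under median scaling. E2f2, an E2F factor that restrains T cell division in mice, was undetected at 4 h and at least 3.80-fold lower, Ccnd3 (cyclin D3) fell by 1.94 (SE 0.16) and Ccnd2 (cyclin D2) rose by 1.29 (SE 0.33).

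**Figure D3:**
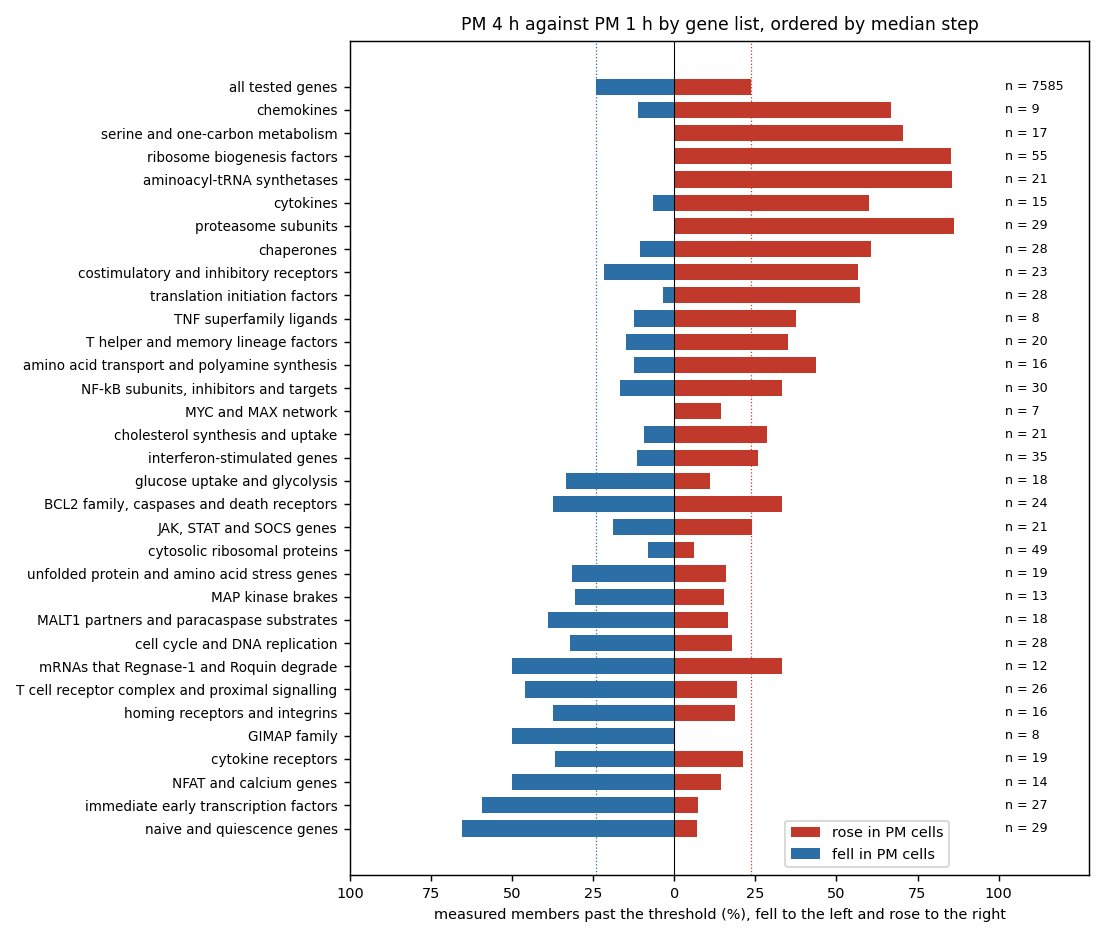
Share of the measured members of 32 gene lists, and of all tested genes at the top, that passed the test in the PM step (percent, horizontal axis), to the right where they rose and to the left where they fell, ordered by median step. The dotted lines mark the shares among all tested genes (23.6% rose, 24.2% fell), and ribosome biogenesis factors, synthetases and proteasome subunits show no fall.

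Markers of other cells also moved. Of 14 B cell markers 6 fell (42.9%, beside 24.2% of all tested genes) and 0 rose (median step -1.0). The falls included Fcmr (-2.45), Cd79a (-2.14) and Cd22, which was detected on no array at 4 h and was at least 2.19-fold lower. The other 8 did not pass, among them Ms4a1 (-0.24), Cd74 (-0.87), Fcer2a (0.79) and Pou2af1 (0.37). At 1 of the 2 times 5 of the 14 were detected on no PM array. The mean level of the 14 was 5.55 to 6.49 at 4 h, against 6.42 to 7.62 at 1 h. Pax5, Ebf1 and Cr2 did not pass the filter. Of 10 CD8 and NK cell markers 5 fell and 0 rose (median -0.89, 3 falls under median scaling), with Cd8b1 at 8.54, 8.27, 8.11 and 8.93 at 4 h, against 9.49, 9.86, 9.77 and 10.44 at 1 h, and a mean level of 5.88 to 6.62 at 4 h, against 6.72 to 7.51 at 1 h. Of 19 myeloid markers 3 fell, Lyz1, Lyz2 and Fcgr2b, and 0 rose (median -0.20, 5 falls with the replicate number as a block), at a mean level of 4.81 to 5.62 at 4 h, against 5.45 to 6.19 at 1 h. Fcgr3, Mrc1, C1qb and Camp were detected on 0 of the 8 arrays. Of 12 T cell markers 6 fell and 3 rose (median -0.57), with 1 fall and 2 rises under median scaling (median -0.31), and Foxp3, the factor of regulatory T cells, did not pass (0.20). In the het step 10 of the 14 B cell markers fell, and in the KO step 6 fell and 1 rose. CD8 and NK cell markers fell in 5 of 10 cases in het and 4 in KO cells, and myeloid markers in 4 and 3 of 19. Fewer cells of a type and less RNA per cell cannot be told apart in these samples. The part that such cells had in the steps of other genes was not tested. Housekeeping genes had a median step of -0.06, with Gapdh at -0.01 and Actb at -0.07.

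Detection gave a list of genes that came on or went off between the times. PM cells detected 75 genes on 4 of 4 arrays at 4 h and on 0 of 4 at 1 h (0.989% of tested genes), and 80 the other way round (1.05%). Of the 75, 40 had also been undetected on all 0 h arrays, and of the 80 only 6 had, Dusp8 among them. After Bcat1, Kif15, Lad1, Cxcl9, Tbx21 and Ccl1 the largest bounds were for Pus7, a pseudouridine synthase (at least 4.84-fold), Gbp5, Bdh2, a short-chain dehydrogenase (4.44-fold), and Akr1c18, which breaks down progesterone in mice (4.30-fold). After Dtx1 those going off were led by Tmem108 (at least 4.25-fold lower), Rab3d (4.00-fold), E2f2 and Hs3st1 (3.13-fold). Het cells had 74 such genes on and 118 off, and KO cells 77 on and 49 off, by their own arrays. Without replicate 2 at 4 h 125 genes went off in PM cells, although leaving out an array loosens the rule and cannot lower the count.

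Whether the protease mutant took a different step from cells with a working allele was asked gene by gene. The step of PM cells differed from that of het cells for 9 genes (0.119%), higher in PM for 5 and lower for 4. Of the 7585 tested genes 430 had an unadjusted p under 0.05 in the limma fit. With no difference at all, a share of about 0.05 would. The count was 35 with the replicate number as a block, 46 with array weights and 1 under median scaling. The largest difference was in Pdgfb, a chain of platelet-derived growth factor. It read 5.39, 5.61, 6.33 and 7.10 in PM cells at 4 h, against 4.91, 4.35, 4.48 and 4.85 at 1 h. At 4 h it averaged 6.11 ± 0.77 in PM cells and 9.28 ± 0.47 in het cells, and at 1 h 4.65 ± 0.28 in PM cells and 4.84 ± 0.31 in het cells. The step was 1.46 in PM cells, 1.46 in KO cells and 4.44 in het cells, a difference of -2.98 between PM and het (SE 0.48, adjusted p 0.00268), with detection at 1 h on 1 of 4 PM, 2 of 4 het and 1 of 4 KO arrays. It passed without each array in turn and in each of the 9 other settings tried.

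Abcb4, a phospholipid exporter, went the other way. It averaged 5.34 ± 0.16 in PM cells at 4 h, on 4 of 4 arrays, against 4.27 ± 0.12 at 1 h, and het cells detected it at neither time (4.44 and 4.39). PM cells did not detect it at 1 h, so that its rise in them is known only as at least 1.40-fold. The fitted difference of 1.02 (adjusted p 0.000181) rests on background values in 3 of the 4 groups, and it passed without each array in turn, but not under median scaling (adjusted p 0.205) nor in the fit of the 16 PM and het arrays. Csrnp1, an immediate early nuclear protein, fell less in PM cells, with a step of -1.06, against -2.17 in het cells and -1.58 in KO cells (difference 1.11, SE 0.22). Klhl6, an adaptor of ubiquitin ligases in lymphocytes, likewise had steps of -1.17 in PM and -2.2 in het cells (difference 1.03). Id1, an inhibitor of helix-loop-helix factors, rose by 1.48 in het cells (detected on 4 arrays at 4 h and on 1 at 1 h). PM cells detected it on 1 array at 4 h and on none at 1 h, and their step of 0.22 did not pass. Insl6 and Arid3b had higher steps in PM cells than in het cells, by 1.61 and 1.17, and Adam19 and Sh2d1a lower ones, by -1.32 and -0.88. Of the 9 calls, 8 ended under median scaling and 8 in the fit of the 16 arrays.

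Against KO cells the step of PM cells differed for 16 genes (0.211%), higher in PM for 4 and lower for 12. Of the 7585 tested genes 422 had an unadjusted p under 0.05, where no difference would give a share of about 0.05. The count was 52 with the replicate number as a block, 25 with array weights and 2 under median scaling. Il3 averaged 7.81 ± 0.42 in PM cells at 4 h and 5.67 ± 0.65 in KO cells at 4 h, with 4.89 ± 0.33 in PM cells and 4.40 ± 0.20 in KO cells at 1 h. Its step was 2.92 in PM cells (detected on 3 of 4 arrays at 1 h), while het and KO cells did not detect it at 1 h, with rises of at least 3.02-fold in het cells and 1.63-fold in KO cells. The fitted steps of PM and KO differed by 1.65 (SE 0.37, adjusted p 0.0475). That call held in 3 of the 16 fits that left out an array. Prnp (2.33), Lad1 (1.94) and Idi2, an isomerase of isoprenoid synthesis (1.13), were the others with a higher fitted step in PM cells. Neither PM nor KO cells detected Lad1 or Idi2 at 1 h, and Lad1 was at least 7.89-fold higher at 4 h in PM cells and at least 1.64-fold in KO cells. Cldn10, a tight junction claudin, read 6.13, 5.29, 5.53 and 6.29 in PM cells at 4 h, against 7.2, 6.68, 6.97 and 7.15 at 1 h. In KO cells it averaged 8.47 ± 0.30 at 4 h and 7.33 ± 0.16 at 1 h, so that it fell in PM cells (step -1.19) and rose in KO cells (1.14). The difference of -2.33 (SE 0.28, adjusted p 1.93e-05) passed without each array in turn and was lost under median scaling (adjusted p 0.0955).

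Akr1c18 was undetected at 1 h in PM and het cells and rose at least 4.30-fold in PM and 4.00-fold in het cells, while 1 KO array detected it at 1 h. Bdh2 was undetected at 1 h in PM and KO cells, with rises of at least 4.44-fold in PM and 9.65-fold in KO cells, and so was Eml1 (2.15-fold and 4.37-fold). The fitted steps of PM were lower than those of KO by -1.92, -1.25 and -1.22 for these 3 genes, values that depend on signals at background. Angptl4, an inhibitor of lipoprotein lipase, had steps of 0.13 in PM, 0.62 in het and 1.51 in KO cells (PM minus KO -1.38). Cd3g, the gamma chain of the receptor complex, fell to 11.50 ± 0.11 in PM cells at 4 h, against 12.35 ± 0.13 at 1 h, a step of -0.85, with -0.95 in het cells and -0.02 in KO cells (PM minus KO -0.83, SE 0.16, adjusted p 0.0188). Cd3d was also among the 16, a gene outside the rule for named genes and chosen after its values were seen, with a PM minus KO difference of -0.71. Ephx1 (-1.36), Cep19 (-1.20), Fxyd5 (-1.16) and Arhgdib (-0.88) were lower in PM than in KO steps as well, and Cdk2ap2, outside the same rule, completed the 16. Of the 14 named, 12 lost their call under median scaling and 12 in the fit of the 16 arrays. The 2 comparisons share the PM arrays.

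**Figure D4:**
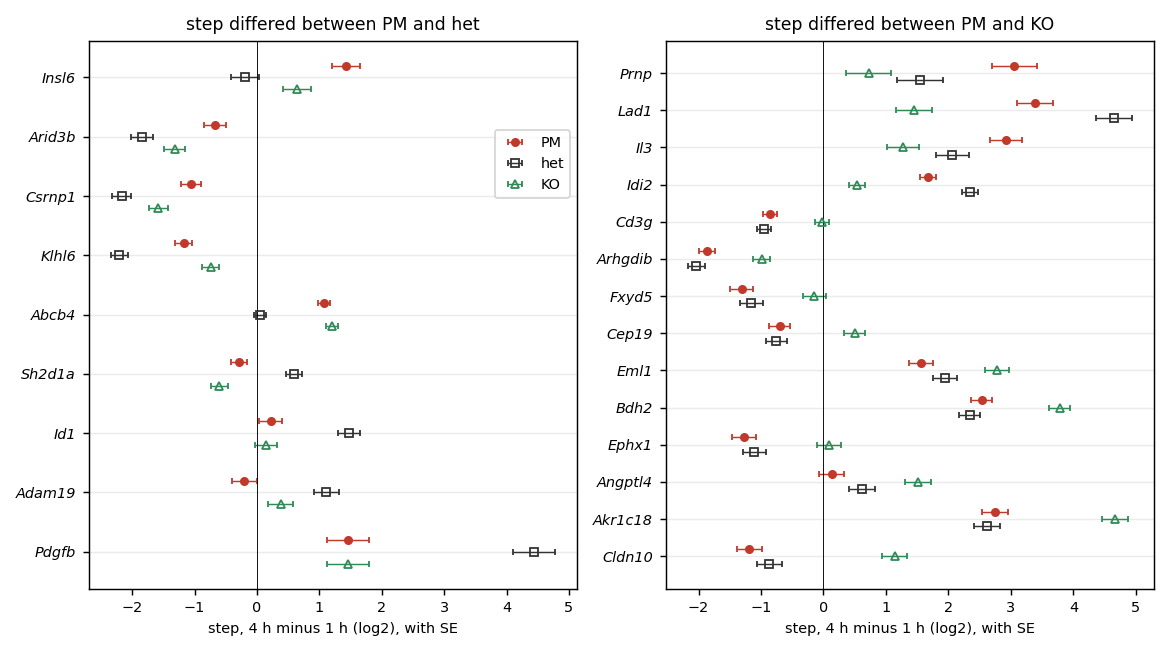
Steps (4 h minus 1 h, log2, horizontal axis) with their SE in PM (filled circles), het (open squares) and KO cells (open triangles) for the 9 genes whose step differed between PM and het (left) and 14 of the 16 genes whose step differed between PM and KO (right). Pdgfb stands at 1.46 in PM and KO cells and at 4.44 in het cells.

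The overall size of the step was compared over genes picked in the genotype left out. Over 596 genes that rose at least 2-fold in the KO step, the mean step was 1.43, 1.43, 1.65 and 1.51 in PM cells, against 1.65, 1.68, 1.72 and 1.76 in het cells. PM averaged 1.5 ± 0.10 and het 1.70 ± 0.05 (SD, n = 4 each), 88.3% of the het step, with no overlap and a two-sided exact permutation p of 0.0286, the smallest that 4 against 4 can give. Adjusted over the 4 such tests it was 0.114, so that it failed the correction. Over 670 falling genes the steps were -1.5 ± 0.19 in PM and -1.74 ± 0.10 in het cells (86.3%, exact p 0.0857, adjusted 0.114), and the ranges overlapped. Taken by replicate number, the PM step was smaller than the het step in 4 of 4 pairs for rising and for falling genes, with an exact paired p of 0.125 for each, the smallest that 4 pairs can give, a test added after seeing the data. Against KO, over genes picked in het cells, PM averaged 1.35 ± 0.10 and KO 1.23 ± 0.05 for 872 rising genes (110%, exact p 0.0857, adjusted 0.114). For 986 falling genes PM averaged -1.33 ± 0.17 and KO -1.24 ± 0.09 (exact p 0.429).

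**Figure D5:**
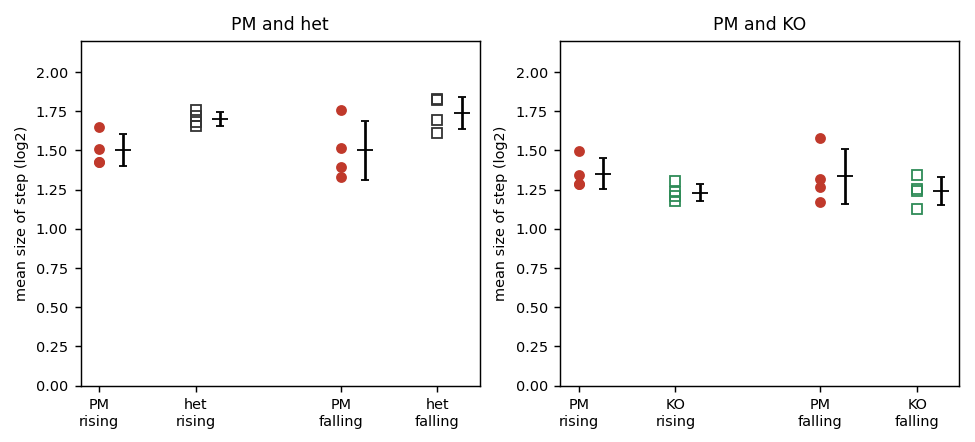
Mean size of the step (log2, without sign, vertical axis) over genes picked in the genotype left out, for PM beside het (left) and PM beside KO (right), with 1 point for each replicate number and bars for mean and SD (n = 4). PM lies below het for rising genes without overlap, and the other 3 pairs overlap.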

How the data were processed

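Per the labels' protocols, T cell RNA was amplified to cRNA carrying biotin (Ambion MessageAmp), and GenomeStudio 2011.1 is named in the submitters' processing notes. The signal intensities used here are, per the file headers, non-normalized and were deposited beside a detection p-value for each probe on each array. The authors' processed table of intensities was used as an alternative, floored at 16, since its normalization is not given in the sources used here. Groups and replicate numbers came from the titles. Of 25697 probes 23978 carried 1 gene symbol and 1719 none, and 0 columns of other samples were left out.

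The intensities were corrected for background inferred from the detection p-values, given an offset of 16, quantile-normalized and log2-transformed (neqc, limma 3.58.1, R 4.3.3, statmod 1.5.0). Probes with a detection p under 0.01 on at least 4 arrays were kept (10961, 10314 of them with a symbol), and the brightest probe of each gene was used (1985 genes had several), which left 7585 genes. Genes near background were not tested and changes of dim genes are compressed. limma fitted 1 mean per group to the 36 arrays together (residual degrees of freedom, 27), with Benjamini-Hochberg adjustment within each comparison at 0.05. A bound ("at least") sets the mean of the group with detection against the lowest detected signal or the gene's own value, whichever is higher, on the arrays without it. Sizes of steps were compared by exact permutation of 4 against 4 steps. Fits were tested on simulated data.

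Genes were named by rule, as the 15 largest rises and 15 largest falls without overlap, up to 10 differences of steps per direction, Malt1, and from each list up to 4 by size or where its count turns on them. The comparison, the members of the 41 gene lists and the tests were chosen with earlier results of these data known, so that no list is independent evidence of its direction. Some items are not reported here. Arrays of the same number correlated at 0.368, 0.579, 0.195 and 0.681 between PM 4 h and PM 1 h after centring on group means, so the numbers pair the samples there. Promoters are RefSeq sequences on GRCm38.p6. Alternatives were median scaling, no background correction, the processed table, other probe filters, the mean of a gene's probes, only the arrays compared, the replicate number as a block, array weights, replicates 1 to 3, leaving out each array and, added after seeing the data, an exact paired test of the size of the step. Figures used matplotlib 3.10.9.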

Additional observations from a re-analysis of the deposited data

Results flagged for a closer look

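Of 364 groups of 4 values, 24 (6.59%) held a value that stood apart, where chance alone gives about 1 in 20. Most groups were the arrays of a named gene at 1 time, and the others were counts of detected probes and mean sizes of the step. The measure is the gap of the outlying value to its nearest neighbour as a share of the range of the 4, set against Dixon's 95% critical value. Among the largest steps the PM 4 h arrays of Lad1 (0.871, replicate 2 low), Mfsd2a (0.841, replicate 1 low) and Nsg2 (0.94, replicate 3 low) were concerned, and the PM 1 h arrays of Sit1 (0.96, replicate 1 low) and Pdlim4 (0.877, replicate 2 high). Replicate 4 was the low array at 4 h for Myc (0.895), Shmt1 (0.954), Eif3b (0.925), Tnfsf8 (0.83) and Ywhaz (0.928). Shmt1 read 5.24 there, against 7.61 to 7.73 on the other PM 4 h arrays, Eif3b 7.58 against 9.67 to 9.84, and Myc 7.16 against 8.64 to 8.82.

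The other PM 4 h groups concerned were those of Akr1c18 (0.844), Rars (0.91), Bcl2a1d (0.884), E2f2 (0.847), Gimap7 (0.883) and Fcgr2b (0.858). At 1 h they were those of Ccl3 (0.978, replicate 2 at 6.25 and the others at 8.14 to 8.18), Fxyd5 (0.872), Rps2 (0.938), Xbp1 (0.849), Psat1 (0.881), Tnfsf8 (0.864), Eif6 (0.853) and Chac1 (0.899).

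The step also differed between genotypes by the test of the difference itself. Against het cells the PM step was higher for Insl6 (1.61), Arid3b (1.17), Csrnp1 (1.11), Klhl6 (1.03) and Abcb4 (1.02), and lower for Pdgfb (-2.98), Adam19 (-1.32), Id1 (-1.26) and Sh2d1a (-0.883). Against KO cells it was higher for Prnp (2.33), Lad1 (1.94), Il3 (1.65) and Idi2 (1.13). It was lower for Cldn10 (-2.33), Akr1c18 (-1.92), Angptl4 (-1.38), Ephx1 (-1.36), Bdh2 (-1.25), Eml1 (-1.22), Cep19 (-1.20), Fxyd5 (-1.16), Arhgdib (-0.877) and Cd3g (-0.832). PM cells detected Id1, Abcb4, Lad1, Idi2, Akr1c18, Bdh2 and Eml1 on no array at 1 h, so their fitted differences rest on signals at background.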

How the results depend on the processing

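Of all 7585 tested genes 3625 passed in the PM step. Under median scaling 1865 passed, of which 1820 were among the 3625. Of the 3625, whether or not they passed there, 9 had turned in sign. Under the other settings 3104 to 4236 passed. The cause was not tested. With the replicate number as a block 4236 passed, among them all 3625. Without 1 array in turn 3200 to 3469 passed. Of the early het genes 97 fell under median scaling, in place of 211. The count of genes going off was 86 to 125 without 1 array in turn, which cannot lower it.

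The 9 differences of PM and het became 1 under median scaling, 20 without background correction, 24 in the processed table, 1 in the fit of the 16 arrays, 35 with the replicate block and 46 with array weights, and 2 to 15 without 1 array in turn. Leaving out PM 4 h replicate 1 gave 2, PM 1 h replicate 1 gave 5, het 4 h replicates 3 and 4 gave 5 and 2, and het 1 h replicates 2, 3 and 4 gave 15, 3 and 2. The 16 differences of PM and KO became 2 under median scaling, 26 in the processed table, 2 in the fit of the 16 arrays, 52 with the replicate block, 25 with array weights and 4 with replicates 1 to 3, and 4 to 29 without 1 array in turn. Leaving out PM 4 h replicates 1, 2 and 3 gave 4, 29 and 5, PM 1 h replicates 1 and 2 gave 10 and 9, KO 4 h replicate 4 gave 5, and KO 1 h replicates 1, 3 and 4 gave 6, 4 and 10. Same-numbered arrays did not correlate above 0.1 in every pair of these groups, so the block there rests on a shared number.

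Of 177 named steps 28 lost their call under median scaling and 10 without some array, and the step of Angptl4, which did not pass at 0.13, turned to -0.0842 with replicates 1 to 3 and to -0.0513 without 1 array. Besides Sh2d1a, which passed with the replicate block, the block changed no call of a named step. The difference in size between PM and het for rising genes was -0.20, and -0.041 under median scaling. For falling genes it was 0.24, and under median scaling 0.43, where the groups did not overlap (exact permutation p 0.0286, adjusted 0.114). The exact paired test, added after seeing the data, left all 4 size tests short of the threshold, which 4 pairs cannot reach. Background on the arrays limits the dim genes.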

Other observations

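Genes of cell survival moved in both directions between 1 h and 4 h in PM cells. Of 24 BCL2 family members, caspases and death receptors 8 rose (33.3%) and 9 fell (37.5%). Among all tested genes 23.6% rose and 24.2% fell. The median step of the list was -0.03, and 5 rose and 2 fell under median scaling. Bid, a BH3 protein that links death receptors to mitochondria, read 7.88, 7.91, 8.14 and 7.80 at 4 h, against 5.85, 6.17, 5.78 and 6.27 at 1 h (step 1.92, SE 0.16). Bcl2a1d, a survival protein, rose by 1.37 (SE 0.26), while Bad fell by 1.26 and Birc2, a ubiquitin ligase of TNF receptor signalling, by 1.25. Of 21 genes of cholesterol synthesis and uptake 6 rose (28.6%, near the share of all tested genes) and 2 fell (9.52%), with a median of 0.10. Sqle, the squalene epoxidase, read 9.36, 9.01, 9.68 and 8.71 at 4 h, against 7.56, 7.12, 7.23 and 6.83 at 1 h (step 2.01, SE 0.19), and Abcg1, a cholesterol exporter, fell by 1.32.

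Of all tested genes 23.6% rose and 24.2% fell, the shares to set beside each list that follows. Of 16 homing receptors and integrins 6 fell (37.5%) and 3 rose (18.75%), with a median of -0.39. Cxcr4, the receptor for CXCL12, read 6.01, 6.66, 5.91 and 6.23 at 4 h, against 8.53, 8.52, 7.98 and 7.81 at 1 h (step -2.01, SE 0.30). Of 8 GIMAP genes, GTPases of lymphocyte survival, 4 fell and 0 rose (median -0.47, 2 falls under median scaling), led by Gimap6 (-1.13, SE 0.14). Of 19 genes of the unfolded protein and amino acid stress responses 6 fell and 3 rose (median -0.14, and 0.02 under median scaling). Cebpb fell by 1.82 (SE 0.28) and Ppp1r15a, a phosphatase subunit that restores translation, by 1.81 (SE 0.49). Of 8 TNF superfamily ligands 3 rose and 1 fell (median 0.50), and of 14 regulatory T cell markers 2 rose and 4 fell, with 5 rises and 4 falls when the replicate number was a block. Of the 7 genes of the MYC and MAX network only Myc passed, and with the block 2 rose and 1 fell. Of 3 plasma cell markers 1 rose and 2 fell. Of 3 erythroid and platelet markers 0 passed, and 1 rose with the block. Of 2 gamma-delta and innate-like T cell markers 0 passed, and 2 fell with the block.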
